A study of Mus musculus with 8 samples.

Results

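Bulk RNA sequencing counts were examined for 9 genes of oxysterol and cannabinoid lipid signalling in mouse bone marrow-derived macrophages (BMDMs): Ch25h, Cyp7b1, Hsd3b7, Gpr183, Cnr2, Mgll, Daglb, Abhd6 and Abhd12. They were chosen by name, with earlier results of these data known, and each matched 1 of the 54532 genes of the deposited count table. Each of the 4 groups held 2 libraries, numbered 1 and 3. Control cells received neither stimulus. Cells of the LPS group had 4 h of 100 ng/ml lipopolysaccharide (LPS), the Gram-negative bacterial glycolipid that Tlr4 senses. The IL-4 group had 24 h of 20 ng/ml interleukin 4 (IL-4), a T-cell cytokine that drives alternative activation of macrophages. Cells of the IL-4 then LPS group had the same 24 h of IL-4, were washed and then had the same 4 h of LPS. Strain, genotype and age of the mice, and whether IL-4 cells also had a wash and a further 4 h of culture, were not stated in the labels.

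Oxysterols are oxidised forms of cholesterol. Ch25h makes 25-hydroxycholesterol, Cyp7b1 adds a further hydroxyl group to yield the ligand of the Gi-coupled receptor Gpr183 (EBI2), which guides the migration of immune cells, and Hsd3b7 removes that ligand. In the cannabinoid arm, diacylglycerol lipases such as Daglb release 2-arachidonoylglycerol from diacylglycerol, the receptor Cnr2 (CB2) responds to it on immune cells, and the hydrolases Mgll, Abhd6 and Abhd12 break it down. Abhd12 also hydrolyses lysophosphatidylserine.

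Library totals ran from 7924932 to 9431852 counts, and levels are given as CPM, the usual depth-scaled count, with library sizes adjusted by trimmed mean of M-values (TMM) factors. All 12 macrophage markers examined had reads in each group. The libraries numbered 1 held 2936 to 4465 reads of Xist, transcribed from the inactive X chromosome of female cells, and those numbered 3 held 0, so sex and any other difference between the numbers cannot be told apart. In bulk samples, fewer cells of a type and less RNA per cell cannot be told apart.

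The 3 genes with the widest relative range of levels were Ch25h, Gpr183 and Cnr2, and the 250 bases before their RefSeq start sites (build GRCm38.p6) are shown 5′ to 3′ on the gene's strand because these are the members that LPS-treated and other cells differed in most. Capitals mark matches to TTGCNNAA, read on both strands as the C/EBP motif, at chr19:34475149-34475398 (minus strand) for Ch25h, chr14:121965194-121965443 (minus strand) for Gpr183, and chr4:135894939-135895188 and chr4:135911430-135911679 (plus strand) for the outer and inner start sites of Cnr2.
Ch25h: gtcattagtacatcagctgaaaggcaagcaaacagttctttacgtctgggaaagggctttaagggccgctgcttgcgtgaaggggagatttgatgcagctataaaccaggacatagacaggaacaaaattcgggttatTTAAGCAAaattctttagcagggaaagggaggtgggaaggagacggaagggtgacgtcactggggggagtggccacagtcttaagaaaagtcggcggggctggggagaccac
Gpr183: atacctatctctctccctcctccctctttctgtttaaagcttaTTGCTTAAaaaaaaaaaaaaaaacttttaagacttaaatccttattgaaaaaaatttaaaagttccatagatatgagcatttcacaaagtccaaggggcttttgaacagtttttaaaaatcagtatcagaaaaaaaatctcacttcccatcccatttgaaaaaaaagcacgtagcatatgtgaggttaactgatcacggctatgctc
Cnr2 outer: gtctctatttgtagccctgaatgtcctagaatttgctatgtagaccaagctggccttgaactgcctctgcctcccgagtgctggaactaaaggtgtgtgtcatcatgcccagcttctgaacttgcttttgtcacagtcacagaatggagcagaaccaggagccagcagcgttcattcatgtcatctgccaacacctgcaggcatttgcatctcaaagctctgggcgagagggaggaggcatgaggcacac
Cnr2 inner: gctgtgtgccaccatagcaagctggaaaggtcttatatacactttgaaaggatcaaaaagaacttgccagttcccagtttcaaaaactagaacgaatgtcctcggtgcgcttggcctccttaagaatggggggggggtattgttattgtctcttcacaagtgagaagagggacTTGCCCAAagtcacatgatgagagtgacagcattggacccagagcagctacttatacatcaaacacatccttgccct
The matches began 112 bases before the start site in Ch25h, 207 bases before it in Gpr183 and 77 bases before the inner site in Cnr2. The outer window of Cnr2 held none. Bases shortly after the start site occurred in an annotated transcript for Ch25h and Gpr183 but for neither Cnr2 site. The Cnr2 positions are therefore less secure. Of 32851 mouse promoter windows of the same length, 9.56% held this motif, so a match is common. None of the 4 windows held GAAANNGAA (interferon response, 7.13% of all windows), TTCNNNGAA (STAT, 7.02%), GGANNTTCC (kappa-B, 3.59%), TGANTCA (AP-1, 6.75%) or GAGGAAG (PU.1, 10.6%), which says only that these letters are not in these windows. RefSeq windows were found for 7 of the 9 genes, and Hsd3b7 alone held a STAT match, which began 21 bases before its start site.

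Ch25h, the enzyme at the entry to the pathway, was close to absent without LPS and abundant with it. Its gene lies on chromosome 19 at 34473786 to 34475135. The control libraries held 0 and 2 reads of Ch25h and the IL-4 libraries 1 and 1. With LPS alone its level was 73.1 CPM in library 1 and 29.3 CPM in library 3 (523 and 212 reads). After IL-4 then LPS it was 46.6 and 18.1 CPM (320 and 140 reads). Every LPS-treated library stood above every library without LPS, and library 3 was the lower of the pair in both LPS-treated groups. The ratio of LPS to control was 553.7 (counting interval 152.7 to 4580), from 735 against 2 reads. The ratio of IL-4 then LPS to IL-4 was 351.1 (96.7 to 2908), from 460 against 2 reads. These intervals cover counting error only. In the quasi-likelihood test of edgeR the latter comparison had a Benjamini-Hochberg adjusted p over all genes of 0.000448. Ch25h passed the filter on low counts only through the LPS-treated libraries and was chosen with earlier results known. This p is therefore no independent evidence. Between the 2 LPS-treated groups, the log2 fold change of Ch25h was -0.66 ± 0.52 (SE) for IL-4 then LPS against LPS (95% interval -1.87 to 0.54, adjusted p = 0.783 by edgeR), so the interval holds both a marked drop and a modest rise. Both same-numbered pairs were lower after IL-4, with log2 ratios of -0.65 and -0.69, while leaving out LPS library 1 turned the fitted value to 0.14. Ch25h shares 159 of its exon bases (11.5%) with the opposite-strand lncRNA gene Gm26902, which held 18 reads in all.

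The next enzymes of the oxysterol route were not detectable at this depth in most libraries. Cyp7b1, which completes the ligand, held 1 read in the 8 libraries, in IL-4 then LPS library 3. Hsd3b7, which removes the ligand, held 1 read, in control library 3. A count of 0 in both libraries of a group allows a level of up to 0.135 CPM in IL-4 cells and 0.208 CPM in LPS cells, with the limit set at 3 reads over the group. No fold is given for either gene. Hsd3b7 shares 62.0% of its exon bases with a same-strand gene, Gm49388, and 62.4% with an opposite-strand one, 9430064I24Rik, both at 0 reads. How reads matching more than 1 gene were counted was not stated, so for Hsd3b7 a level of 0 reads cannot be told apart from reads left unassigned.

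Gpr183, the receptor, was present in both groups without LPS and nearly gone in both with it, the opposite of Ch25h. Its level was 21.5 and 19.1 CPM in control cells and 20.6 and 15.2 CPM in IL-4 cells. With LPS alone it was 0.419 CPM in library 1 (3 reads) and 0 in library 3. After IL-4 then LPS it was 0.728 CPM in library 1 (5 reads) and again 0 in library 3. The LPS-treated libraries did not overlap those without LPS, and all of the 8 remaining reads came from libraries numbered 1. The level in LPS cells was 97.8-fold lower than in control cells (counting interval 33.2 to 476), and in IL-4 then LPS cells it was 52.3-fold lower than in IL-4 cells (22.2 to 161.9, adjusted p = 0.000676 by edgeR). The fitted log2 fold change of the latter was -5.64 ± 0.73, and it ran to -10.40 without IL-4 then LPS library 1 and -4.59 without library 3. IL-4 alone gave a log2 fold change of -0.18 ± 0.45 against control (95% interval -1.23 to 0.87, adjusted p = 0.972 by edgeR).

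Gpr183 stands on the minus strand of chromosome 14 at 121952551 to 121965195, inside the plus-strand gene Ubac2 (121878620 to 122021034), with which it shares 0 exon bases. A second Gi-coupled receptor gene, Gpr18, lies in the same interval on the minus strand at 121911253 to 121915781. Gpr18 was at 0.173 and 1.28 CPM in control cells and 12.2 and 9.11 CPM in LPS cells. It was at 0.267 and 0.272 CPM in IL-4 cells and 2.91 and 3.76 CPM in IL-4 then LPS cells, a log2 fold change of 3.57 ± 0.76 (adjusted p = 0.00774 by edgeR). Gpr18 therefore rose in the same comparison in which its neighbour Gpr183 fell. The host gene Ubac2 ranged from 25.3 to 33.5 CPM over the 8 libraries.

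**Figure D1:**
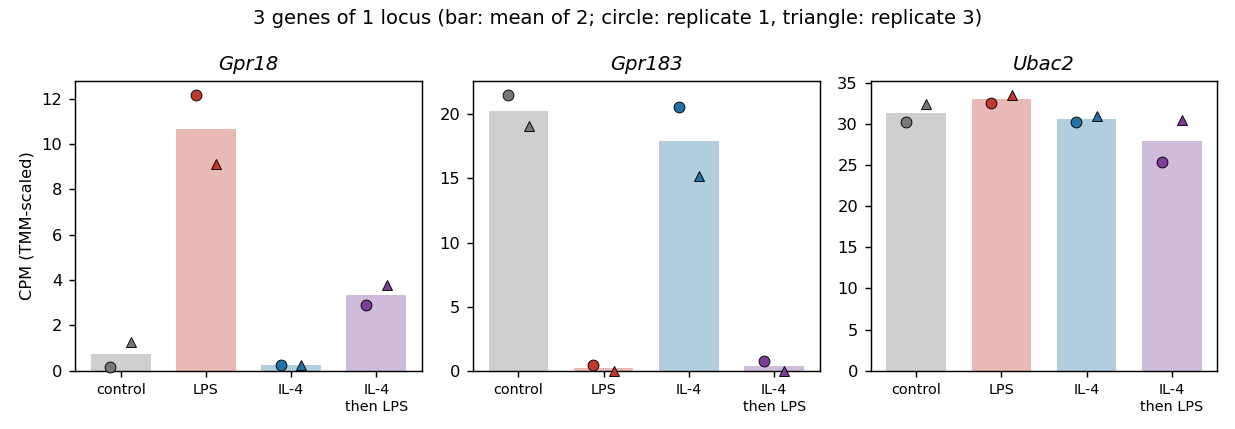
Levels of Gpr18, Gpr183 and Ubac2 in TMM-scaled CPM by group, each panel with its own linear axis from 0. Points are libraries (circle: number 1, triangle: number 3) and bars are means of 2; Gpr183 is high only in the control and IL-4 groups, Gpr18 is highest in LPS cells at 12.2 and 9.11 CPM, and Ubac2 stays between 25.3 and 33.5 CPM.

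Cnr2, the cannabinoid receptor of immune cells, was split by LPS in the same way as Gpr183, high in both groups without it and low in both with it. It lies on chromosome 4 at 135895394 to 135920207. Its level was 74.3 and 79.6 CPM in control cells and 85.3 and 85.9 CPM in IL-4 cells. With LPS it was 0.280 and 0.966 CPM (2 and 7 reads), and after IL-4 then LPS it was 0.291 and 0.778 CPM (2 and 6 reads). The libraries with and without LPS did not overlap. Here the libraries numbered 3 held more of the remaining reads, whereas for Gpr183 those numbered 1 held all of them. In LPS cells the log2 fold change of Cnr2 against control was -6.91 ± 0.35, given as a description. In IL-4 then LPS cells against IL-4 cells it was -7.25 ± 0.35 (adjusted p = 1.25e-05 by edgeR), and it ran from -8.13 to -6.76 when 1 library was left out. Over all 12234 tested genes this was the 8th lowest fold change of that comparison. Against control, IL-4 alone gave 0.15 ± 0.21 (95% interval -0.34 to 0.65, adjusted p = 0.931 by edgeR).

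Both receptors are also expressed by B cells, so B-cell markers are given beside them. Among these markers, Cd79a and Blk held 0 reads in all 8 libraries. The summed level of the list was 14.2 to 19.5 CPM in control cells, 5.38 to 6.85 CPM in LPS cells, 10.6 to 10.97 CPM in IL-4 cells and 4.66 to 5.83 CPM in IL-4 then LPS cells. Most of it was Ighm, at 13.8 and 18.8 CPM in control cells and 6.57 and 5.11 CPM in LPS cells. The list thus moved with LPS in the same direction as Gpr183 and Cnr2, by a smaller factor. Its summed level was below that of Cnr2 in each library without LPS, but in control library 3 it was 19.5 CPM beside 19.1 CPM for Gpr183. Whether it has a part in the levels of either receptor was not tested.

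Marker lists of several other cell types reached higher summed levels with LPS, as Ch25h did. Of 11 T and NK cell markers, 8 held 0 reads in every group, among them Cd3d, Cd3e and Cd3g. The summed level of that list was 4.35 to 15.1 CPM in control cells and 11.5 to 32.7 CPM in LPS cells, and it was 2.17 to 3.92 CPM in IL-4 cells and 12.8 to 17.8 CPM in IL-4 then LPS cells. Lck, a kinase of T-cell receptor signalling, was at 0.432 and 0.395 CPM in control cells and 21.7 and 8.28 CPM in LPS cells. The other markers of this list with reads did not rise in that comparison. Cd4 was at 13.8 and 3.56 CPM in control cells and 10.9 and 3.04 CPM in LPS cells. Klrb1c was at 0.864 and 0.395 CPM in control cells and 0.140 and 0.138 CPM in LPS cells. The 7 stromal markers summed to 3.95 to 5.88 CPM in control cells and 18.2 to 46.1 CPM in LPS cells, and to 4.26 to 4.73 CPM in IL-4 cells and 24.3 to 43.8 CPM in IL-4 then LPS cells. With LPS most of that was Pdgfrb, a growth factor receptor, at 14.0 and 41.3 CPM in LPS cells against 0.951 and 0.889 CPM in control cells. Among the other stromal markers the highest level in LPS cells was 2.07 CPM, for Col1a1 in library 3. Col1a2 was at 1.56 and 1.98 CPM in control cells and 1.40 and 1.10 CPM in LPS cells. The collagen gene Col3a1 held 0 reads in both LPS-treated groups. The 8 dendritic cell markers summed to 3.46 to 5.36 CPM in control cells and 10.8 to 19.4 CPM in LPS cells, and to 5.80 to 13.7 CPM in IL-4 cells and 15.7 to 25.9 CPM in IL-4 then LPS cells. Xcr1, a chemokine receptor of this list, was at 0.346 and 0.198 CPM in control cells and 9.79 and 2.35 CPM in LPS cells. Clec10a was at 3.98 and 1.88 CPM in control cells and 6.99 and 3.59 CPM in LPS cells. Zbtb46 was at 0.173 and 0.296 CPM in control cells and 0.419 and 2.48 CPM in LPS cells, higher in library 3. Clec9a was at 0.432 and 0.0988 CPM in control cells and 0 and 0.138 CPM in LPS cells. The 8 markers of neutrophils and their precursors summed to 0.864 to 3.46 CPM in control cells and 3.50 to 8.004 CPM in LPS cells, with Elane and Ly6g at 0 reads throughout. The 8 markers of mast cells, basophils and eosinophils had their highest sum in IL-4 cells, at 15.9 to 18.5 CPM against 5.73 to 7.002 CPM in control cells. Nearly all of this sum was Siglecf, at 18.4 and 15.7 CPM in IL-4 cells and 6.92 and 5.73 CPM in control cells. Epx, Fcer1a, Mcpt8 and Ms4a2 were at 0 reads throughout. The part of these lists in the levels of the 9 genes was not tested.

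**Figure D2:**
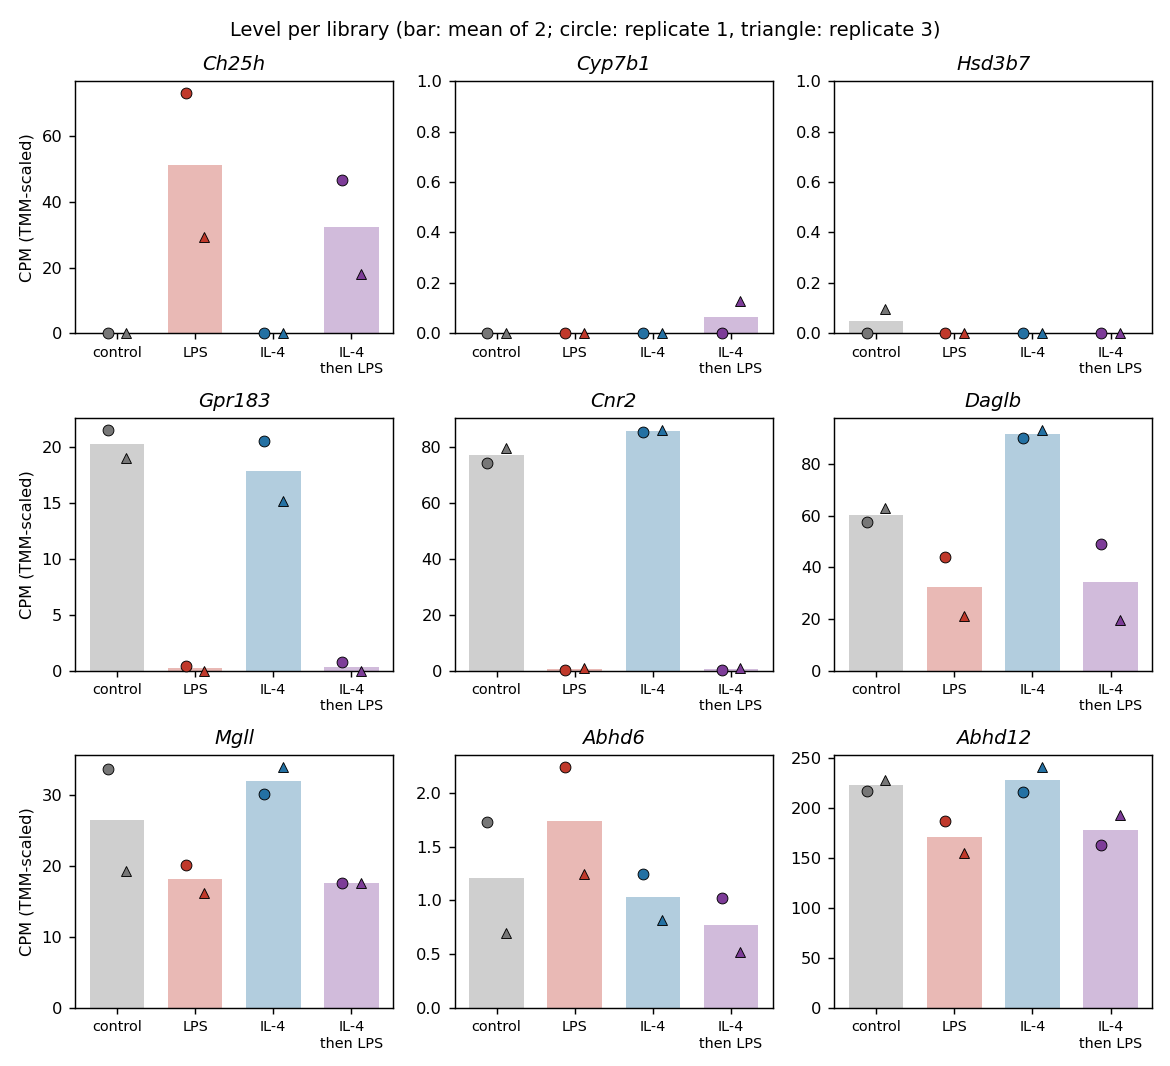
Level of each of the 9 genes in TMM-scaled CPM by group, each panel with its own linear axis from 0. Points are libraries (circle: number 1, triangle: number 3) and bars are means of 2; Ch25h is high only with LPS, Gpr183 and Cnr2 only without it, and Cyp7b1 and Hsd3b7 each have 1 read in 1 library.

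Daglb, the lipase that makes 2-arachidonoylglycerol, was highest after IL-4 alone and lower with LPS. Its level was 57.8 and 63.2 CPM in control cells and 90.4 and 93.3 CPM in IL-4 cells. With LPS it was 43.9 and 21.3 CPM, and after IL-4 then LPS it was 49.1 and 19.6 CPM. The IL-4 libraries stood above all others and the LPS-treated ones below all others, and library 3 was well below library 1 in each LPS-treated group. Daglb fell after IL-4 then LPS against IL-4, with a log2 fold change of -1.42 ± 0.43 (adjusted p = 0.0328 by edgeR). This call was lost without IL-4 library 1 (adjusted p = 0.0852), without IL-4 library 3 (0.0918) and without IL-4 then LPS library 3, where the log2 fold change was -0.90 (0.127). IL-4 against control gave 0.60 ± 0.42 (95% interval -0.37 to 1.57, adjusted p = 0.826 by edgeR). LPS against control gave -0.89 ± 0.43, as a description.

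Daglb lies on chromosome 5 at 143464584 to 143505942, and 24.1% of its exon bases (2309) are shared with the opposite-strand gene Rac1, which held 26106 reads. Strand was not stated, so reads from these shared bases cannot be assigned with certainty. Rac1 stood at 328.8 and 357.3 CPM in control cells, 358.0 and 393.9 CPM in LPS cells, 325.9 and 358.8 CPM in IL-4 cells and 366.7 and 406.4 CPM in IL-4 then LPS cells. The log2 fold change of Rac1 was 0.13 ± 0.14 for LPS against control. For IL-4 then LPS against IL-4 it was 0.18 ± 0.14 (adjusted p = 0.357 by edgeR). The part of the shared bases in the level of Daglb was not tested.

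Mgll, the main hydrolase of 2-arachidonoylglycerol in brain, was moderately lower with LPS. Its level was 33.6 and 19.3 CPM in control cells, the widest gap between 2 control libraries among the members above 10 CPM. It was 20.1 and 16.1 CPM in LPS cells, 30.1 and 33.9 CPM in IL-4 cells and 17.6 CPM in both IL-4 then LPS libraries. LPS and control libraries overlapped, while IL-4 then LPS and IL-4 libraries did not. Against IL-4, Mgll fell in IL-4 then LPS cells by 0.86 ± 0.26 on the log2 scale (adjusted p = 0.0344 by edgeR). This call was lost whichever of the 4 libraries compared was left out: without IL-4 library 1 the adjusted p was 0.0735, without IL-4 library 3 it was 0.132, without IL-4 then LPS library 1 it was 0.113 and without library 3 it was 0.126. LPS against control gave -0.55 ± 0.26, as a description, and IL-4 against control gave 0.27 ± 0.26 (adjusted p = 0.881 by edgeR).

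Abhd12 was the most abundant member. It was at 217.4 and 228.6 CPM in control cells, 187.1 and 155.7 CPM in LPS cells, 216.6 and 241.1 CPM in IL-4 cells and 162.7 and 193.1 CPM in IL-4 then LPS cells. The LPS-treated libraries lay below all others, but the log2 fold change of Abhd12 after IL-4 then LPS against IL-4, -0.36 ± 0.15, missed the threshold (adjusted p = 0.0981 by edgeR). It passed when libraries were scaled by their totals alone (log2 fold change -0.89), by upper-quartile factors (-0.61) or with the replicate number as a block (adjusted p = 0.0403). Library totals alone shift the median of all genes in this comparison by -0.52 and upper-quartile factors by -0.25, so relative to that median Abhd12 lay in the same place. Abhd6, another serine hydrolase, was counted in 4 to 20 reads per library. Its level ran from 0.518 CPM in IL-4 then LPS library 3 to 2.24 CPM in LPS library 1, and in each group library 1 was above library 3. IL-4 then LPS against LPS gave -1.18 ± 0.71 (95% interval -2.83 to 0.48, adjusted p = 0.716 by edgeR), so at this depth neither a loss of most of the transcript nor an unaltered level is outside the interval.

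Ratios of members within 1 library do not depend on how libraries are scaled. Daglb stood at 26.6 and 27.7 reads per 100 Abhd12 reads in control cells, 41.7 and 38.7 in IL-4 cells, 23.5 and 13.7 in LPS cells and 30.2 and 10.1 in IL-4 then LPS cells. By this ratio the 2 groups without LPS were tight and separate, with IL-4 above control, and the IL-4 then LPS libraries spread on both sides of the control values. Against Mgll they were not separate: Daglb stood at 172.0 and 328.2 reads per 100 Mgll reads in control cells and 300 and 275.4 in IL-4 cells. Per unit of gene length, Abhd12 made up 91.3% to 95.2% of the summed level of the 3 hydrolases in every library. Mgll supplied 4.46% to 7.85% and Abhd6 0.304% to 1.33%. Gene length here counts all annotated exon bases, which need not match the transcripts present, so these shares depend on it.

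**Figure D3:**
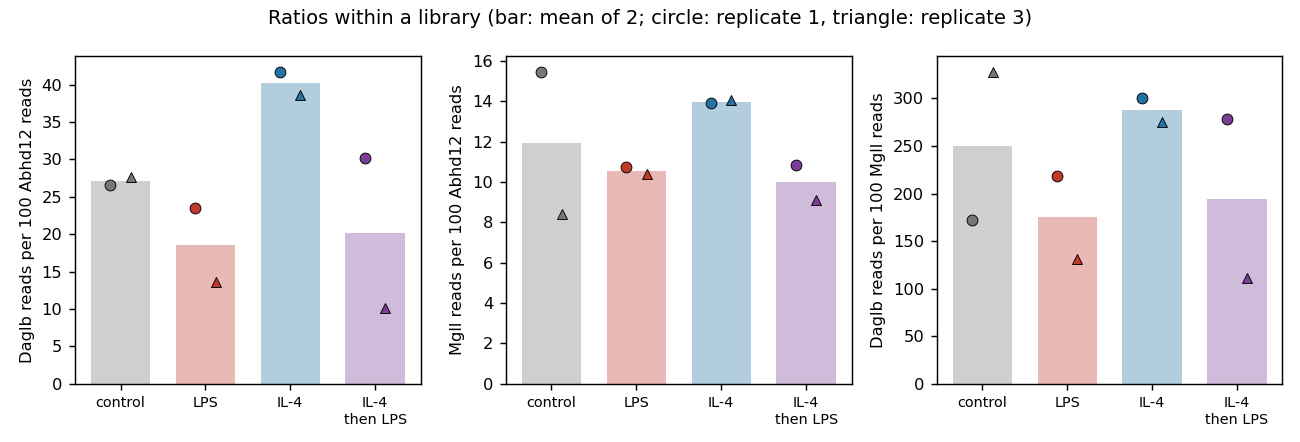
Reads of Daglb and Mgll per 100 reads of Abhd12 and of Daglb per 100 reads of Mgll in each library, on linear axes from 0. Points are libraries (circle: number 1, triangle: number 3) and bars are means of 2; the Daglb to Abhd12 ratio is highest in IL-4 cells (41.7 and 38.7) and lowest in IL-4 then LPS library 3 (10.1).

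On the scale of CPM per kilobase of gene length, the order of levels in control cells was Abhd12 (79.0 ± 2.8, SD, n = 2), Cnr2 (19.3 ± 0.95), Gpr183 (7.03 ± 0.60), Daglb (6.33 ± 0.40), Mgll (5.21 ± 2.0), Abhd6 (0.512 ± 0.31) and Ch25h (0.0732 ± 0.10). Abhd12 and Cnr2 were clear of their neighbours, while Gpr183, Daglb and Mgll overlapped. The order depends on the length used, which counts all annotated exon bases, for Daglb also those shared with Rac1. In LPS cells Abhd12 (60.7 ± 7.9) was followed by Ch25h (37.9 ± 23.0), then by Mgll (3.57 ± 0.56) and Daglb (3.41 ± 1.7), which overlapped. Abhd6 (0.736 ± 0.30) came next, and Cnr2 (0.156 ± 0.12) and Gpr183 (0.0727 ± 0.10) were last and overlapped. Ch25h and Cnr2 thus changed places: without LPS the receptor Cnr2 was second and Ch25h nearly absent, and with LPS the reverse held.

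Of the 9 genes, 7 passed the filter on low counts. LPS against control was taken as the contrast used in choosing the members, so their values there are a description and no member calls are given. Of all tested genes, 40.4% were called in it at an adjusted p under 0.05 by edgeR, 21.8% higher and 18.6% lower. When IL-4 then LPS was compared with IL-4, 5 of 7 were called, Ch25h higher and Gpr183, Cnr2, Daglb and Mgll lower, where 39.3% of all genes were called, 20.7% higher and 18.6% lower. The median log2 fold change of the 7 was -0.86, and that of all genes -0.04. This comparison has no library in common with LPS against control, but the members were chosen with earlier results known. Neither the count nor the adjusted p-values of members are therefore independent evidence. Ch25h passed the filter only through LPS-treated libraries, and Gpr183 and Cnr2 only through libraries without LPS. In IL-4 against control 0 of 7 were called and 0 had an unadjusted p under 0.05 (edgeR; DESeq2 also called 0), where 0.0654% of all genes (8) were called. Between IL-4 then LPS and LPS alone the member counts were again 0 and 0 by edgeR and 0 by DESeq2, with 0.0654% of all genes called. The log2 fold changes there were -0.19 ± 0.63 for Cnr2 (95% interval -1.64 to 1.26), 0.07 ± 0.44 for Daglb (-0.94 to 1.08), -0.04 ± 0.27 for Mgll (-0.67 to 0.59) and 0.05 ± 0.15 for Abhd12 (-0.30 to 0.41). The interval was narrowest for Abhd12, the member with the most reads, and for Gpr183, at 5 against 3 reads, it was too wide to place a difference (-2.52 to 3.90). For the difference between the 2 LPS responses, 0 members (0 at an unadjusted p under 0.05) and 0.00% of all genes were called by edgeR, while 322 genes had an unadjusted p under 0.05 and DESeq2 called 5 genes, 0 of them members. The differences had wide intervals: for Gpr183 0.87 ± 1.46 (95% interval -2.52 to 4.26) and for Cnr2 -0.34 ± 0.67 (-1.89 to 1.20), so an equal response was not shown.

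**Figure D4:**
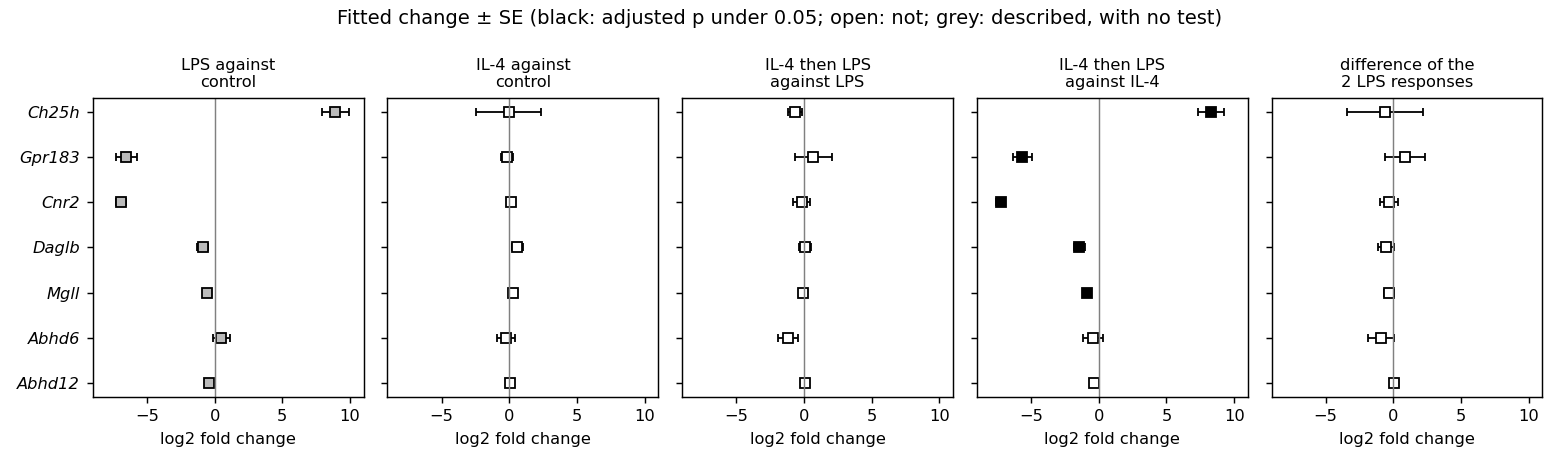
Fitted log2 fold changes of the 7 tested members in the 5 comparisons, on 1 common linear axis. Squares are estimates and bars are ± 1 SE (grey: LPS against control, given as a description with calls not shown; black: adjusted p under 0.05; open: not past it); Ch25h lies far to the right and Gpr183 and Cnr2 far to the left in both LPS comparisons, and no member is black in the other 3.

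The other genes of these pathways were followed in 6 lists of 112 genes, 82 of which were tested. Comparing IL-4 then LPS with IL-4, 18 rose and 24 fell by edgeR, with a median log2 fold change of -0.37, where 20.7% of all tested genes rose, 18.6% fell and the median was -0.04. In LPS against control the counts were 18 and 23, with a median of -0.35, where 21.8% of all genes were called higher and 18.6% lower, with a median of -0.01. The lists were chosen with earlier results known, so these counts are no independent evidence. In the comparisons without a change of LPS, edgeR and DESeq2 each called 0 of the list genes in IL-4 against control, where 4 had an unadjusted p under 0.05 in edgeR, and 0 between IL-4 then LPS and LPS, where 8 did. With no filter on low counts, edgeR called 1 gene of endocannabinoid synthesis lower in the former. In the latter it called 2 genes of breakdown and oxidation higher with no filter and 2 higher with the replicate block, and with no filter 1 receptor or carrier higher and 1 lower.

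Among oxysterol enzymes, 4 of 13 genes were tested and 1 changed when LPS followed IL-4. It was Soat1, which esterifies cholesterol for storage: 523.7 and 592.0 CPM in IL-4 cells and 150.9 and 135.4 CPM in IL-4 then LPS cells, a log2 fold change of -1.96 ± 0.15 (adjusted p = 6e-05 by edgeR). Of 21 tested oxysterol sensors and carriers, 3 rose and 6 fell. Stard3, which moves cholesterol between endosomes and other membranes, rose by 1.70 ± 0.28 and Stard5, a cytosolic sterol carrier, by 1.29 ± 0.13 on the log2 scale. Osbpl2 (-1.11 ± 0.20) and Osbpl7 (-1.03 ± 0.27), both oxysterol-binding protein relatives, fell. Osbpl7 lost its call without IL-4 library 1 or either IL-4 then LPS library. In LPS against control, Npc1, which exports cholesterol from lysosomes, was at 213.1 and 199.0 CPM in LPS cells and 418.0 and 438.2 CPM in control cells.

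Of 14 tested genes of endocannabinoid synthesis, 3 rose and 7 fell, with a median of -1.15. Dagla, the second diacylglycerol lipase, was at 31.3 and 26.2 CPM in IL-4 cells and 3.79 and 4.67 CPM in IL-4 then LPS cells. Its log2 fold change was -2.76 ± 0.21 (adjusted p = 5.27e-05 by edgeR). Daglb fell less, and its call did not hold in every fit without 1 library. Inpp5d (-3.01 ± 0.36) and Ptpn22 (-2.57 ± 0.43), phosphatases better known from immune receptor signalling, fell as well. Pla2g16, a phospholipase and acyltransferase, rose by 3.67 ± 0.37.

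Of 13 tested genes of endocannabinoid breakdown and oxidation, 5 rose and 2 fell; without IL-4 library 1 these counts were 3 and 1, and without IL-4 then LPS library 1 they were 4 and 0. Ptgs2, the inducible cyclooxygenase that makes prostaglandins from arachidonic acid and can also oxidise 2-arachidonoylglycerol, went from 0.713 and 1.36 CPM in IL-4 cells to 2207 and 3219 CPM in IL-4 then LPS cells (log2 fold change 11.34 ± 0.42, adjusted p = 1.02e-05 by edgeR). Ddhd1, a phospholipase, rose by 3.04 ± 0.35 and Abhd16a, a phosphatidylserine lipase, by 1.25 ± 0.27. Abhd16a lost its call without IL-4 library 1 or IL-4 then LPS library 3. Alox12, a lipoxygenase, had 1.17 to 3.35 CPM in IL-4 then LPS cells, and its call was lost whichever library of that comparison was left out and with libraries scaled by totals alone or upper-quartile factors.

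Of 12 tested further receptors and carriers, 2 rose and 1 fell. The number that rose was 2 in every alternative run, but 7 were lower with library totals alone, 5 with the replicate block, 4 with no filter and 3 with upper-quartile factors or DESeq2. Besides Gpr18, the fatty acid binding protein Fabp3 rose by 3.04 ± 0.50, and Pparg, a nuclear receptor for fatty acid derivatives, fell by 2.85 ± 0.36. Of 18 tested Gi proteins, receptor kinases, arrestins and regulators of G protein signalling (RGS), which act downstream of both receptors, 5 rose and 7 fell. Arrb1, an arrestin that helps to desensitise receptors, fell from 369.7 and 335.3 CPM in IL-4 cells to 75.0 and 59.7 CPM in IL-4 then LPS cells (-2.39 ± 0.17). Rgs1, which speeds the shut-off of Gi proteins, rose by 2.39 ± 0.32 and the receptor kinase Grk3 by 2.37 ± 0.33. Rgs16 rose by 3.14 ± 0.78 from at most 0.446 CPM, and lost its call without IL-4 library 3 or IL-4 then LPS library 1. In LPS against control, Grk4 was at 0.280 and 0.276 CPM against 1.04 and 1.88 CPM, and its call was lost in most alternatives.

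**Figure D5:**
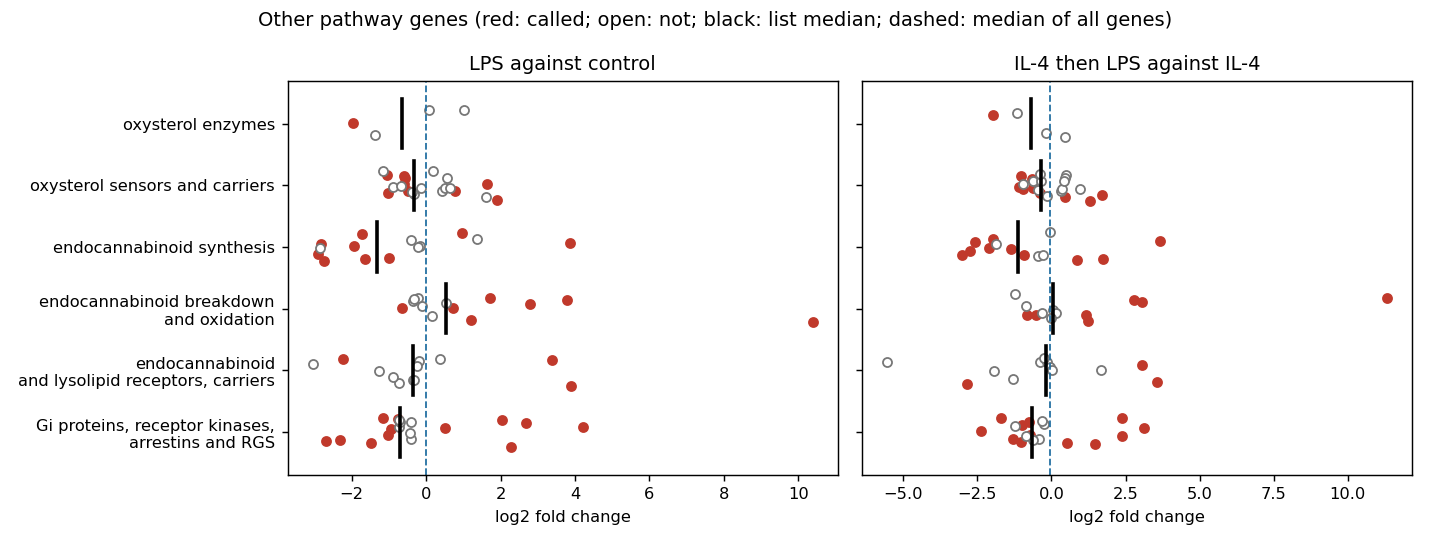
Log2 fold changes of the 82 tested genes of the 6 lists in LPS against control (left) and IL-4 then LPS against IL-4 (right), 1 point per gene with vertical jitter and a separate linear axis per panel. Red points are genes called at an adjusted p under 0.05, open points are not, black lines are list medians and the dashed line is the median of all genes (-0.01 left, -0.04 right); the median for endocannabinoid synthesis lies lowest, at -1.32 and -1.15.

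The genes most like 3 of the members over the 8 libraries were found by Pearson's r of log2 CPM among tested protein-coding genes. For Gpr183 they were Smarcal1 (r = 0.998), Etaa1 (0.998) and Flvcr1 (0.998). For Cnr2 they were Irf2bp2 (0.999), Plxdc1 (0.999) and Mef2d (0.997). For Ch25h they were Il15ra (0.998), Tmem171 (0.997) and Clec2d (0.997). The points share their 4 groups, and each r rests mainly on the gap between the LPS-treated libraries and the others. Likeness in r is not likeness in size: Smarcal1 went from a mean of 21.2 CPM in control cells to 13.6 CPM in LPS cells, whereas Gpr183 went from 20.3 to 0.210 CPM. Il15ra, a receptor subunit that presents interleukin 15, went from 2.67 to 136.3 CPM.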

How the data were processed

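Trizol extraction and Illumina library preparation are given per the labels' protocols. The authors deposited raw read counts per gene; HISAT2, StringTie and HTSeq with mm10 are named in the submitters' processing notes, without versions. Strandedness was not stated. A further 6 count columns are not described by the labels and were not used. The members and gene lists were chosen with earlier results of these data known.

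Genes were kept by filterByExpr in edgeR 4.0.16 (R 4.3.3), which left 12234 genes, scaled with TMM (factors 0.787 to 1.25) and tested with the quasi-likelihood test, 1 mean per group over 8 libraries, with Benjamini-Hochberg adjustment over all tested genes and a threshold of 0.05. The SE was derived from the log2 fold change and the F statistic and is approximate at few reads. No p or call is given for members in LPS against control, which was taken as the contrast used in choosing them. Where a group held few reads, a ratio is given with its 95% counting interval (exact, conditional on the total; Clopper-Pearson); intervals and the floor of 3 reads cover counting error only. The fit was tested on simulated data. The labels do not say whether libraries came from separate cultures. Reads of Xist and Ddx3y show that the libraries of each group came from cells of different sex. The p-values measure the spread between these libraries, which includes any difference between the numbers. Levels of all members are drawn by group, and fitted changes of all tested members are drawn for every comparison. The text prints only some of these changes. Of each list the genes past the test with the largest change were named, up to 4. The 3 genes most like Gpr183, Cnr2 and Ch25h were named; Hsd3b7, also planned, was not tested. Gene positions follow the deposited table, and 8 of the 9 members have the same start and end in GENCODE M21, from which exon overlaps were taken. Alternatives were other scalings (relative log expression, library totals alone, upper quartile), no filter, DESeq2 1.42.0, a replicate block, fits of only the groups compared, and leaving out each library.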

Additional observations from a re-analysis of the deposited data

How the results depend on the processing

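The calls for Ch25h, Gpr183 and Cnr2 in IL-4 then LPS compared to IL-4 held in every alternative run. Member calls in LPS against control are not given, since it was taken as the contrast used in choosing the members. With IL-4 then LPS compared to IL-4, 5 members were called and 3 to 5 when 1 library was left out. Over all genes in that comparison, 4808 were called and 3116 to 4799 without 1 library (3116 without IL-4 library 1). Scaling moved the share of higher calls: 53.9% of called genes were higher in LPS against control, 21.2% with library totals alone and 36.6% with upper-quartile factors, which shifted the median of all genes by -0.60 and -0.26. For IL-4 then LPS compared to IL-4 the shares were 52.8%, 22.5% and 36.0%.

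In IL-4 against control 8 genes were called, against 360 with no filter, 288 with the replicate block, 109 with DESeq2 and 4 to 9 without 1 library. In IL-4 then LPS against LPS 8 were called, against 397, 281 and 119 in the same alternatives, 5 with only the groups compared and 6 to 12 without 1 library. For the difference between LPS responses 0 were called, against 53 with no filter, 1 with the replicate block and 5 with DESeq2. 0 members were called in these 3 comparisons by any of these. The cause of these shifts was not tested.

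Same-numbered libraries deviated together, with correlations of 0.343 to 0.524 between their deviations from the group means. The labels do not say that a number marks a shared animal or day, so the block was not used in the main results. The reads do show that the number tracks sex: in every group library 1 held Xist reads and library 3 held reads of Y-linked Ddx3y instead. The main fit therefore leaves differences between the numbers in its residual spread.

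Some uncalled log2 fold changes changed sign when 1 library was left out, and their ranges over those fits follow. In LPS against control they ran from -0.032 to 1.25 for Abhd6. In IL-4 against control they ran from -1.06 to 2.90 for Ch25h, -0.091 to 0.69 for Mgll, -0.76 to 0.52 for Abhd6 and -0.085 to 0.091 for Abhd12. Between IL-4 then LPS and LPS they ran from -1.49 to 0.14 for Ch25h, -4.07 to 4.75 for Gpr183, -1.06 to 0.94 for Cnr2, -0.73 to 0.69 for Daglb, -0.19 to 0.13 for Mgll and -0.073 to 0.19 for Abhd12. For the difference between LPS responses they ran from -3.53 to 0.43 for Ch25h, -3.88 to 4.93 for Gpr183, -1.22 to 0.78 for Cnr2, -1.34 to 0.086 for Daglb, -0.70 to 0.079 for Mgll and -0.11 to 0.17 for Abhd12. With library totals alone, Abhd6 in LPS against control was -0.097 and Mgll between IL-4 then LPS and LPS was 0.021. With 2 libraries per group, a lone library is assumed to vary like the other groups.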
